A study of Mus musculus with 11 samples.

Results

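The genes described here encode collagens and other parts of the extracellular matrix, with the enzymes that cross-link or cut it and the PDGF receptors of the cells that make it. The list has 38 genes and was matched to the gene names on Illumina MouseRef-8 v2 bead arrays. Of these, 36 genes had a probe, 48 probes in all out of 25697 on the array, and Col6a3 and Fn1 had none among the probes analysed here. The files give the names in capitals (COL1A1, DCN, FBN1), and mouse symbols are used below. The tissue was terminal ileum, and every mouse was naive, 8 to 12 weeks old and measured on 1 array. The comparison was of 5 SKG mice (replicates 4 to 8) with 3 BALBc mice (replicates 1 to 3). SKG mice have the BALB/c background and carry a germline point mutation in Zap70, the kinase that passes on the T cell receptor's signal, which the mutation weakens. All 5 SKG mice and BALBc replicate 3 were in batch 3, and BALBc replicates 1 and 2 were in batch 2. The 3 SKG arrays of batch 1 were left out, since their rows and probe names do not match.

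The matrix of the gut wall is made mostly by fibroblasts and smooth muscle cells. Fibrillar collagens form the cables of the submucosa, and small proteoglycans such as decorin bind those cables and set their spacing. Basement membranes, built from laminins, type IV collagens and nidogens, lie as thin sheets under the epithelium and around vessels and muscle. Elastic fibres, made of elastin on a scaffold of fibrillin, let the wall recoil after it is stretched.

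Median raw signal was 98.5 to 105.6 on the 5 SKG arrays, against 103.7 for BALBc replicate 3 and 187.5 and 163.0 for the BALBc mice of batch 2. Between 12445 and 14076 probes per array were above background. Epithelial genes of the ileum were measured by 9 of the 10 listed markers with a probe, and no pancreatic marker was above background on enough arrays. Over all 13775 probes tested, limma with batch as a random block called 79 different between the strains at an adjusted p under 0.05, which is 0.574%. Of these, 35 were lower in SKG (0.254%) and 44 were higher (0.319%). The number of arrays limits the precision of every value.

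Of the 36 genes with a probe, 33 were above background on at least 3 of the 8 arrays and were tested. Col5a2, Fbln5 and Postn were not: Col5a2 was above background on 1 BALBc array, and Fbln5 and Postn on none. Of the 33 tested, 30 were above background on all 8 arrays. The exceptions were Lama4, on 1 SKG and 3 BALBc arrays, Mfap5, on 4 SKG and 1 BALBc arrays, and Col14a1, on 4 SKG and 3 BALBc arrays. Lama4 therefore passed the filter through its BALBc arrays. Values are background-corrected, quantile-normalised log2 signals, and a gene with several probes is given by the brightest. Each difference is SKG minus BALBc on the log2 scale.

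No matrix gene passed the test. The fitted difference was below 0 for 32 of the 33 genes, with a median of −0.64 and a range from −1.48 for Fbn1 to 0.56 for Nid2, the only gene above 0. Over all probes tested, 49.0% of fitted differences were below 0 and their median was 0.01. At a stricter detection p under 0.01, which Lama4 did not pass, 31 of 32 genes were below 0, with a median of −0.68. At an unadjusted p under 0.05, 16 of the 33 genes were lower in SKG, against 5.92% of all probes. Lama4 is 1 of the 16, and leaving it out, since its filter rested on the BALBc arrays, gives 15 of 32. None of the 33 was higher at that p, against 7.42% of all probes. The smallest limma adjusted p among the 33 genes was 0.167, shared by Fbn1 and Dpt. In whole tissue, fewer matrix-making cells and less RNA per cell cannot be told apart.

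**Figure D1:**
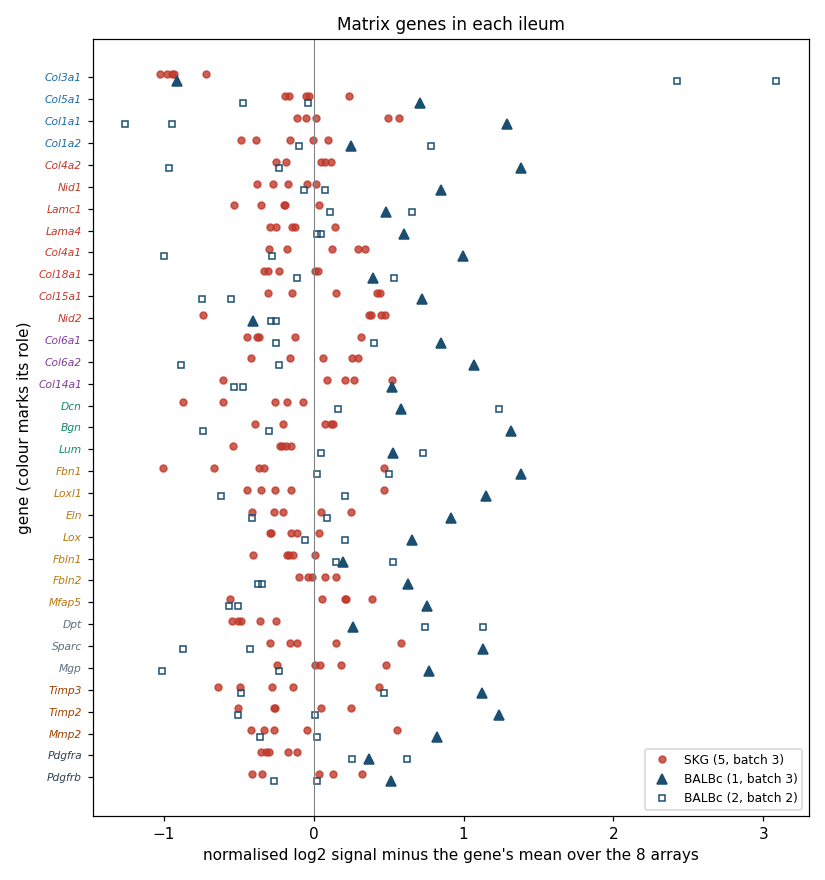
Normalised log2 signal of the matrix genes in each array, shown for each gene as the deviation from its mean over the 8 arrays, with 1 row per gene, genes grouped by role, circles for SKG mice, and a triangle and squares for the BALBc mice of batches 3 and 2. BALBc replicate 3 is above all 5 SKG arrays in 30 of the 33 genes, and Col3a1 is high in BALBc replicates 1 and 2 alone.

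The size of the difference depended on which BALBc mice SKG was set against. Against BALBc replicate 3, of the same batch, the SKG mean was lower for 32 of 33 genes, with a median difference of −0.79, while 48.6% of all probes were lower. Against the mean of BALBc replicates 1 and 2, of batch 2, it was lower for 15 of 33 genes, with a median of 0.06, while 41.6% of all probes were lower. In all, 15 genes were lower in SKG in both comparisons, 17 were lower against batch 3 and higher against batch 2, and Nid2 was higher in both. By plain group means, which ignore batch, SKG was lower for 23 of 33 genes with a median of −0.36, against 43.9% of all probes. For 9 genes the plain and the fitted difference had opposite signs.

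BALBc replicate 3 lay above all 5 SKG mice in 30 of 33 genes (21.3% of all probes) and had the highest value of the 8 arrays in 22 of 33 (16.5%). BALBc replicates 1 and 2 both lay above all SKG mice in 7 genes (21.1%) and both below all of them in 4 genes (30.6%). Each array was also summarised by its median deviation from the gene means. It was −0.004, −0.23, −0.12, −0.26 and −0.03 in SKG replicates 4 to 8, against −0.34, 0.02 and 0.72 in BALBc replicates 1 to 3. The batch 3 BALBc mouse stood highest, and the lowest array was also a BALBc mouse. Without BALBc replicate 3 the median difference of the 33 genes was 0.06 and 15 of them were lower in SKG, with strain and batch no longer separable.

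**Figure D2:**
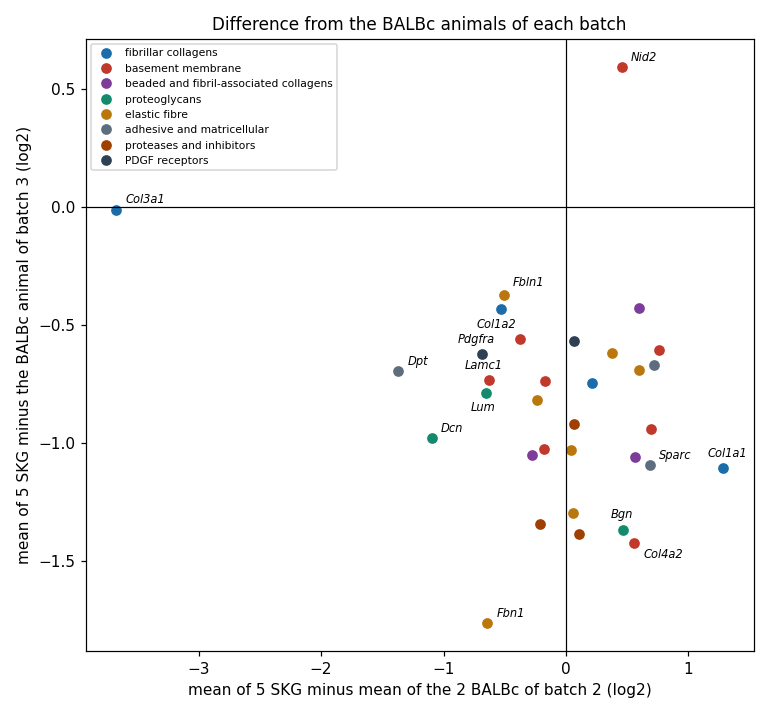
Difference of the SKG mean from BALBc replicates 1 and 2 of batch 2 (x axis, log2) and from BALBc replicate 3 of batch 3 (y axis, log2), with 1 point per gene coloured by role. Of the 33 genes, 15 are in the lower left, 17 in the lower right and Nid2 in the upper right.

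SKG values were spread less than BALBc values, which came from both batches. The median standard deviation over the 33 genes was 0.27 in SKG and 0.59 in BALBc, against 0.31 in SKG and 0.38 in BALBc over all probes. Over the member probes, the standard error of the bead signal had a median of 2.76% on a probe's most precise array and 5.21% on its least precise one. The groups did not overlap, with SKG below, for 6 of 33 genes (5.25% of all probes): Dpt, Lamc1, Fbln1, Pdgfra, Dcn and Lum. No gene had all SKG mice above all BALBc mice, against 10.0% of all probes.

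The proteoglycans decorin, lumican and biglycan, which coat collagen fibrils, had a median fitted difference of −0.90, and all 3 had an unadjusted p under 0.05. Dcn had log2 signals of 12.22, 12.04, 11.69, 11.42 and 12.12 in SKG replicates 4 to 8, against 12.46, 13.54 and 12.88 in BALBc replicates 1 to 3. All SKG values were below all BALBc values, in both batches. The fitted difference was −1.01 with a standard error of 0.36 and a limma adjusted p of 0.256. A second Dcn probe had 8.72, 8.37, 7.64, 7.95 and 8.50 in SKG, against 10.73, 11.23 and 9.53 in BALBc. Its groups did not overlap either, and its fitted difference of −1.66 had a limma adjusted p of 0.105, the smallest of any matrix probe. Lum, which keeps fibrils thin and evenly spaced, had 8.37, 8.44, 8.05, 8.40 and 8.38 in SKG, against 8.63, 9.32 and 9.11 in BALBc. The groups were again apart, by −0.75 in the fit (standard error 0.27, limma adjusted p 0.252).

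Bgn, which binds collagen and growth factors, had 10.71, 10.43, 10.76, 10.24 and 10.75 in SKG, against 9.89, 10.34 and 11.95 in BALBc. Here the SKG mice lay between the BALBc mice, above replicate 1 and below replicate 3. The difference was −1.37 against the batch 3 mouse and 0.46 against the batch 2 mice, and the fit gave −0.90 with a limma adjusted p of 0.338 and 0.46 without BALBc replicate 3.

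The fibrillar collagens, the main load-bearing proteins of connective tissue, had 4 measured genes with a median fitted difference of −0.50, and none had an unadjusted p under 0.05. The promoter of Col3a1 is shown because, of the 33 genes, its values differed most between the BALBc mice, and that of Col1a2 is set beside it as a second fibrillar collagen. The sequences are from RefSeq, assembly GRCm38.p6, 250 bases up to the gene start, 5′ to 3′ on the gene's strand, with capitals on motif letters. Col1a2 is on the plus strand at chr6:4505368-4505617 and Col3a1 on the plus strand at chr1:45311288-45311537.
Col1a2: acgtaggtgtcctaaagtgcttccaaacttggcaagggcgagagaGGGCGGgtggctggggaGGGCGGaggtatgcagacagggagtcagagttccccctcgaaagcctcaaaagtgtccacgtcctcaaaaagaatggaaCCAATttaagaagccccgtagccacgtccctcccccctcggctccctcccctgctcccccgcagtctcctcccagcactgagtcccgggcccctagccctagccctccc
Col3a1: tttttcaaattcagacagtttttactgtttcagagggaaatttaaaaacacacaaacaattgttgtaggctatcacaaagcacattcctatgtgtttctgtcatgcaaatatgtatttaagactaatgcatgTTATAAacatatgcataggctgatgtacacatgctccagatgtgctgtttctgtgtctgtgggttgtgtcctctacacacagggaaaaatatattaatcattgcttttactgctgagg

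Motifs were searched by their letters on both strands. The CCAAT box was read as CCAAT, with ATTGG for the other strand. The TATA box was read as TATAA, with TTATA for the other strand. The GC box was read as GGGCGG, with CCGCCC for the other strand. Positions count bases from the gene start. In Col1a2 the GC box letters began at −205 and −188 and the CCAAT box letters at −109. In Col3a1 the capitals hold the TATA box letters of both strands, which overlap and begin at −118 and −117. Of the 36 genes with a probe, 21 had a promoter in the table. Of these 21, 7 held the CCAAT box letters, 2 those of the TATA box and 12 those of the GC box, against 34.5%, 23.5% and 32.9% of all 27025 promoters of that length. These matches describe the letters only.

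Col3a1, a collagen of distensible organs such as gut and vessels, had 6.83, 7.05, 6.79, 6.75 and 6.84 in SKG, against 10.20 and 10.86 in BALBc replicates 1 and 2 and 6.86 in BALBc replicate 3. The batch 3 BALBc mouse lay within the SKG range, and both batch 2 mice lay far above it. The SKG mean differed by −0.01 from the batch 3 mouse and by −3.67 from the batch 2 mice, and the fit gave −0.95 with a standard error of 0.60 and a limma adjusted p of 0.542. It gave −3.68 without BALBc replicate 3 and −0.54 without SKG replicate 6. The large difference of this probe thus lay between the BALBc mice of batch 2 and all mice of batch 3, of both strains. A second Col3a1 probe was above background on no array, with 4.39 and 4.66 in BALBc replicates 1 and 2. The cause of the large difference was not tested. In the authors' deposited table, fitted the same way, the difference of Col3a1 was 0.05.

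Col1a2, a chain of type I collagen, had 5.74, 5.26, 5.83, 5.58 and 5.36 in SKG, against 5.64, 6.52 and 5.99 in BALBc. Its groups overlapped at BALBc replicate 1, and the fitted difference was −0.46 (standard error 0.31, limma adjusted p 0.577). Col5a1, which starts type I fibrils, had 8.90, 8.79, 9.19, 8.77 and 8.92 in SKG, against 8.49, 8.92 and 9.66 in BALBc. Its SKG values lay within the BALBc range, and the fit gave −0.50 with a limma adjusted p of 0.484, and 0.21 without BALBc replicate 3. Col1a1, the other type I chain, was chosen after its values were seen. It had 8.78, 8.17, 8.23, 8.30 and 8.85 in SKG, against 7.02, 7.34 and 9.57 in BALBc. Its SKG mean differed by 1.28 from the batch 2 mice and by −1.11 from the batch 3 mouse, and the fitted difference was −0.49 (standard error 0.46).

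**Figure D3:**
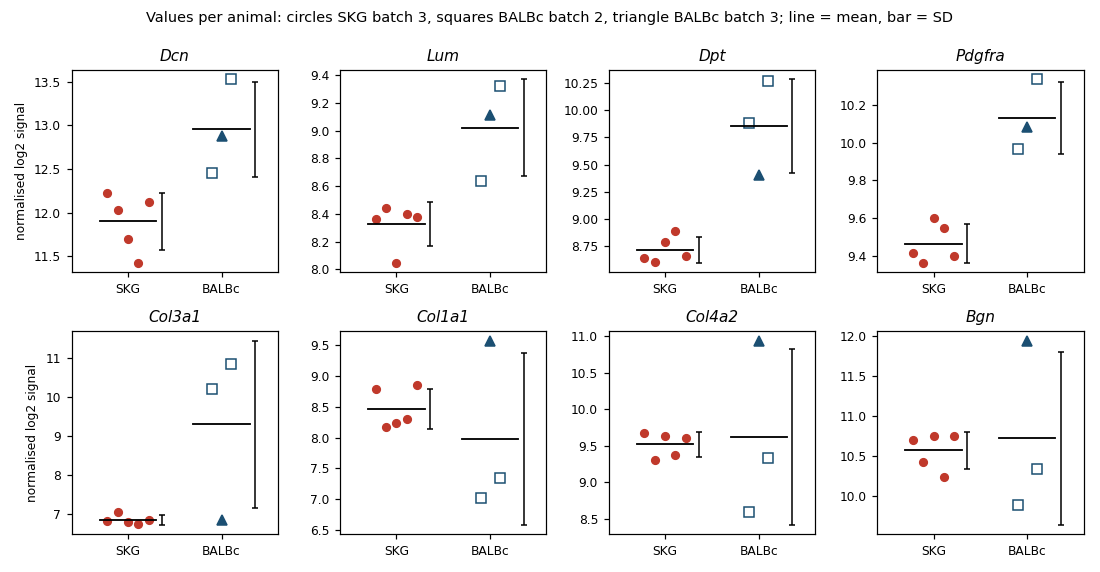
Normalised log2 signal of single matrix genes in each mouse, with SKG mice left of BALBc mice and the batch of each BALBc mouse marked. Dpt and Dcn have all SKG mice below all BALBc mice, Col3a1 is high in the BALBc mice of batch 2 alone, and Bgn has SKG mice between the BALBc mice.

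The basement membrane genes had 8 measured members, 7 of them with a fitted difference below 0, a median of −0.56 and 4 with an unadjusted p under 0.05 (3 of 7 without Lama4). At a detection p under 0.01, where Lama4 was not tested, 6 of 7 were below 0, also with a median of −0.56. Nid1, a nidogen that links laminin to type IV collagen, had 7.71, 7.32, 7.53, 7.42 and 7.65 in SKG, against 7.63, 7.77 and 8.55 in BALBc. The groups overlapped at BALBc replicate 1, and the fit gave −0.81 (standard error 0.26, limma adjusted p 0.212). Without BALBc replicate 3 it gave −0.18. Lamc1, the gamma chain of most laminins, had 7.52, 7.19, 7.53, 7.37 and 7.75 in SKG, against 7.83, 8.37 and 8.20 in BALBc. All SKG mice were below all BALBc mice, and the difference was −0.73 against batch 3 and −0.63 against batch 2. The fit gave −0.70 with a limma adjusted p of 0.278.

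Lama4, a laminin chain of vessel walls and muscle, was near background, with 4.47, 4.62, 4.63, 4.91 and 4.51 in SKG, against 4.81, 4.78 and 5.37 in BALBc. SKG replicate 7 was above 2 of the BALBc mice, and the fit gave −0.59 with a limma adjusted p of 0.326, and −0.18 without BALBc replicate 3. Col4a2, a type IV chain chosen here after its values were seen, had 9.31 to 9.68 in SKG with a median of 9.61, against 8.59, 9.33 and 10.94 in BALBc. Its fitted difference of −0.92 was the lowest of the group, while the SKG mean was 0.56 above the batch 2 mice. Nid2, the second nidogen, also chosen after its values were seen, had 6.51, 6.42, 5.30, 6.41 and 6.48 in SKG, against 5.78, 5.75 and 5.63 in BALBc. Apart from SKG replicate 6 all SKG mice were above all BALBc mice, and the fit gave 0.56 (standard error 0.37, limma adjusted p 0.565). Col4a1, Col15a1 and Col18a1 had fitted differences from −0.52 to −0.26.

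The beaded and fibril-associated collagens, which tie fibrils to cells and to each other, had 3 measured genes, all with fitted differences below 0 and 1 with an unadjusted p under 0.05. Col6a1, a chain of the beaded type VI filaments, had 9.99, 9.75, 9.67, 9.74 and 10.43 in SKG, against 9.87, 10.52 and 10.97 in BALBc. Its groups overlapped, and the fit gave −0.85 with a limma adjusted p of 0.295, and −0.28 without BALBc replicate 3. A dimmer Col6a1 probe had a fitted difference of −1.01 and a limma adjusted p of 0.145.

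Col6a2, its partner chain, had 8.34, 8.14, 7.92, 7.67 and 8.38 in SKG, against 7.20, 7.85 and 9.15 in BALBc. All SKG mice lay within the BALBc range, and the fit gave −0.64 with a limma adjusted p of 0.520, and 0.57 without BALBc replicate 3. Col14a1, which sits on fibril surfaces, had 5.82, 5.64, 4.95, 5.76 and 6.08 in SKG, against 5.02, 5.08 and 6.08 in BALBc. Both batch 2 mice were below 4 of the 5 SKG mice, and the fit gave −0.17 (standard error 0.36), against 0.61 without BALBc replicate 3.

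The elastic fibre genes had 7 measured members, all with fitted differences below 0, a median of −0.67 and 4 with an unadjusted p under 0.05. The promoter of Fbn1 is shown as that of the gene with the lowest fitted difference, from the minus strand at chr2:125506439-125506688, with 1 GC box that begins at −185.
Fbn1: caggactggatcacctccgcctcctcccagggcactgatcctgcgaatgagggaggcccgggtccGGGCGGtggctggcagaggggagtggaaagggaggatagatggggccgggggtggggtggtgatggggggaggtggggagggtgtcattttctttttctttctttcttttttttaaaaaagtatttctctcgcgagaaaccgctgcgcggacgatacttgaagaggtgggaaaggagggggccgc

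Fbn1 encodes fibrillin-1, the microfibril scaffold on which elastin is laid. It had 8.23, 8.20, 9.03, 7.55 and 7.90 in SKG, against 8.59, 9.06 and 9.95 in BALBc. SKG replicate 6 was the only SKG mouse above BALBc replicate 1. The fit gave −1.48 with a standard error of 0.43 and a limma adjusted p of 0.167, with −1.79 without SKG replicate 6 (limma adjusted p 0.0193) and −0.64 without BALBc replicate 3 (limma adjusted p 0.178). Lox and Loxl1 are copper enzymes that cross-link collagen and elastin. Lox had 5.46, 5.27, 5.13, 5.14 and 5.31 in SKG, against 5.64, 5.37 and 6.08 in BALBc. Only SKG replicate 4 overlapped the BALBc range, and the fit gave −0.67 with a limma adjusted p of 0.261, and −0.24 without BALBc replicate 3. Loxl1 had 8.77, 8.57, 9.39, 8.66 and 8.47 in SKG, against 8.30, 9.13 and 10.07 in BALBc. Its groups overlapped, and the fit gave −0.95 with a limma adjusted p of 0.336, and 0.057 without BALBc replicate 3.

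The other 4 elastic fibre genes, Eln, Fbln1, Fbln2 and Mfap5, had fitted differences from −0.76 for elastin itself to −0.36. Fbln1, a fibulin with 3 probes, was chosen after its values were seen. Its brightest probe had 10.38 to 10.79 in SKG with a median of 10.62, against 10.93, 11.31 and 10.98 in BALBc. A dim Fbln1 probe had 4.90, 4.33, 5.30, 5.00 and 4.38 in SKG, against 7.52 and 7.96 in BALBc replicates 1 and 2 and 4.57 in BALBc replicate 3. That probe had the pattern of Col3a1, with high values in the batch 2 mice alone, which the brighter probe did not.

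The adhesive and matricellular genes, which link cells to fibrils without bearing load, had 3 measured members. The promoter of Dpt is shown as that of the gene with the smallest adjusted p beside Fbn1, from the plus strand at chr1:164796413-164796662, and it held none of the 3 motifs.
Dpt: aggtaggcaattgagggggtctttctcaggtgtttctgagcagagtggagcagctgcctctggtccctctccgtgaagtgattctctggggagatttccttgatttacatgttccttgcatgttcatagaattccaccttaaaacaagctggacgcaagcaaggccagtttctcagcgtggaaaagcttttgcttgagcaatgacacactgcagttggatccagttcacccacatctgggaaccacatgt

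Dpt encodes dermatopontin, which binds decorin and collagen. It had 8.64, 8.60, 8.78, 8.89 and 8.66 in SKG, against 9.89, 10.28 and 9.41 in BALBc. Every SKG mouse was below every BALBc mouse, by −0.69 on average against batch 3 and −1.37 against batch 2. The fit gave −0.87 with a standard error of 0.25 and a limma adjusted p of 0.167, and −1.37 without BALBc replicate 3. Sparc, a collagen-binding matricellular protein, had 10.45, 10.19, 10.01, 10.14 and 10.89 in SKG, against 9.43, 9.88 and 11.43 in BALBc. All SKG mice were above both batch 2 mice and below the batch 3 mouse, and the fit gave −0.64 with a limma adjusted p of 0.541, and 0.69 without BALBc replicate 3. Mgp, an inhibitor of matrix calcification, had 10.21, 9.77, 9.48, 9.74 and 9.91 in SKG, against 8.71, 9.49 and 10.49 in BALBc. It had the order of Sparc apart from SKG replicate 6, which was just below BALBc replicate 2, and the fit gave −0.32 (standard error 0.37), against 0.72 without BALBc replicate 3.

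The protease Mmp2 and the inhibitors Timp2 and Timp3 had a median fitted difference of −1.00, and both inhibitors had an unadjusted p under 0.05. Timp2, which inhibits Mmp2 and also helps to activate it, had 10.57, 10.02, 10.78, 10.26 and 10.27 in SKG, against 10.02, 10.53 and 11.77 in BALBc. Only BALBc replicate 3 was above all SKG mice, and the fit gave −1.00 with a limma adjusted p of 0.262. It gave −1.25 without SKG replicate 6 (limma adjusted p 0.0493) and 0.10 without BALBc replicate 3 (limma adjusted p 0.774). Timp3, which stays bound to the matrix, had 8.82, 8.47, 9.39, 8.68 and 8.32 in SKG, against 8.47, 9.43 and 10.08 in BALBc. SKG replicates 5 and 8 lay below BALBc replicate 1, and the fit gave −1.05 with a limma adjusted p of 0.303, and −0.21 without BALBc replicate 3. Mmp2, a gelatinase that cuts denatured and type IV collagen, had 9.31, 8.94, 9.03, 9.09 and 9.91 in SKG, against 9.00, 9.38 and 10.18 in BALBc. Its groups overlapped, and the fit gave −0.67 with a limma adjusted p of 0.450, and 0.068 without BALBc replicate 3.

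The PDGF receptors mark the mesenchymal cells that make matrix. Pdgfra, found on fibroblasts, had 9.41, 9.36, 9.60, 9.55 and 9.40 in SKG, against 9.97, 10.34 and 10.09 in BALBc. The groups did not overlap, with SKG different by −0.62 against batch 3 and −0.69 against batch 2, and the fit gave −0.64 (standard error 0.23, limma adjusted p 0.252). Pdgfrb, found on pericytes and smooth muscle, had 7.24, 6.51, 7.05, 6.96 and 6.58 in SKG, against 6.66, 6.95 and 7.44 in BALBc. Its groups overlapped, and the fit gave −0.41 with a limma adjusted p of 0.608, and 0.066 without BALBc replicate 3.

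**Figure D4:**
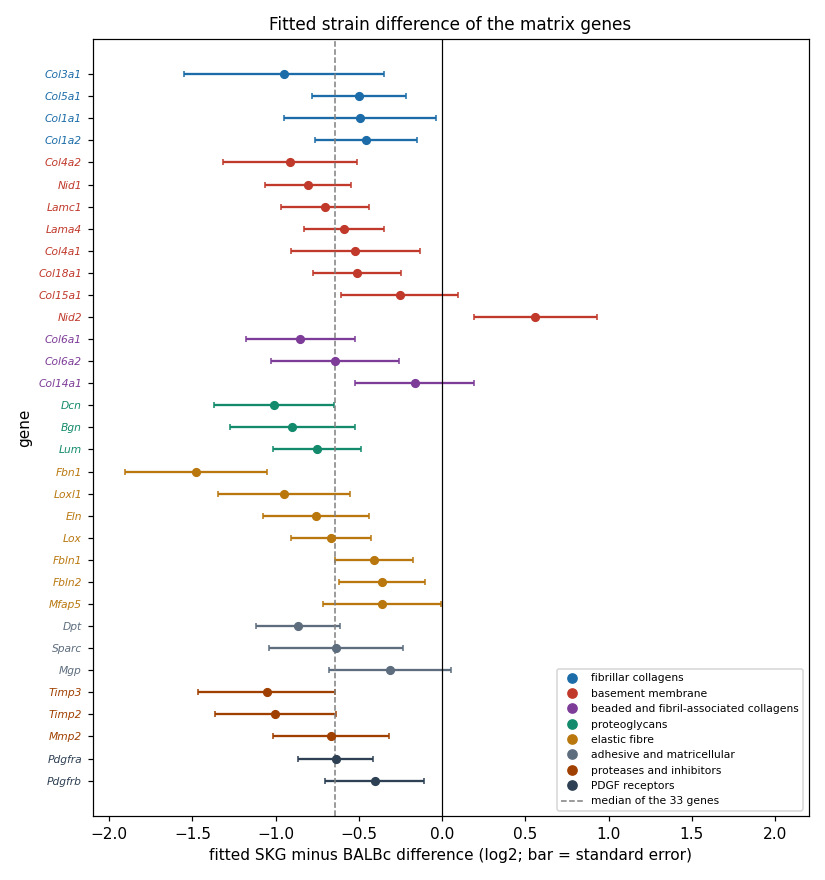
Fitted SKG minus BALBc difference (log2) with its standard error for each of the 33 matrix genes, grouped by role. All but Nid2 lie below 0, from −1.48 for Fbn1 to −0.17 for Col14a1, and none passed an adjusted p of 0.05.

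All 6 genes with several tested probes (Sparc, Col18a1, Col6a1, Fbln1, Fbln2 and Dcn) had fitted differences of 1 sign, but 39 of all 40 tested matrix probes were below 0. The second Sparc probe had −1.42, with a standard error of 0.54. Against batch 2 the Sparc probes had 0.68 and −0.12, and the Fbln2 probes 0.37 and −0.17. Against batch 3 the brightest Fbln1 probe had −0.37 and the dim one 0.21. Probes of Dcn, Col6a1 and Col18a1 kept 1 sign in both comparisons. The second Fbln2 probe passed the filter through its BALBc arrays. Without BALBc replicate 3, 7 of the 33 genes passed the test. Of all probes, 16.2% were called lower in SKG and 21.8% higher. Dpt, Col3a1, Pdgfra, Lum and Dcn were lower in SKG, with limma adjusted p of 0.00048, 1.14e-05, 0.0159, 0.0456 and 0.0232, and Col1a1 and Col15a1 were higher, with 0.00303 and 0.0344. All remaining BALBc mice were then in batch 2, so strain and batch cannot be told apart in those calls. Without SKG replicate 6, 3 of the 33 passed: Fbn1 and Timp2, lower in SKG (2.36% of all probes), and Nid2, higher by 0.82 with a limma adjusted p of 0.0329 (3.20% of all probes). With no block for batch, only Dpt of the 33 was called, lower in SKG as were 1.98% of all probes. With limma's array weights, 11 of the 33 were called lower (23.6% of all probes) and 7 higher (34.9%).

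Other matrix genes were taken from wider lists, and no gene in them passed the test. Over all probes, 5.92% were lower and 7.42% higher in SKG at an unadjusted limma p under 0.05. Of 16 other proteoglycan and elastic fibre genes, 14 had fitted differences below 0 and 8 an unadjusted p under 0.05, all lower, with a median of −0.57. Prelp, a small proteoglycan of basement membranes, had −1.09 (standard error 0.27, limma adjusted p 0.107), and Ltbp4, which holds TGF-beta in elastic fibres, had −1.43 (limma adjusted p 0.172). Of 16 genes for collagen synthesis and cross-linking, 14 were below 0 with a median of −0.35 and 2 at an unadjusted p under 0.05. These were Serpinh1, the collagen chaperone, with −0.84, and Pcolce2, an enhancer of collagen propeptide removal, with −0.80. Pcolce2 was above background on 1 SKG and 3 BALBc arrays, so it passed the filter only through its BALBc arrays. Of 15 proteases and inhibitors, 14 were below 0 with a median of −0.33, and at an unadjusted p under 0.05 there were 2 lower and 1 higher. Plau, the urokinase plasminogen activator, had −1.28 (limma adjusted p 0.0912), and Mmp14, a membrane collagenase, had −0.99. Against the mean of the batch 2 BALBc mice, SKG was lower for 9 of 16, 9 of 16 and 9 of 15 genes, in the order given. The medians were −0.10, −0.09 and −0.02, while 41.6% of all probes were lower. Of the genes named here only Ltbp4 was higher in that comparison, by 0.04.

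The signalling list, of TGF-beta and fibroblast growth genes, had 19 measured members, 16 below 0 with a median of −0.47 and 5 lower at an unadjusted p under 0.05 (5.92% of all probes). Against the mean of the batch 2 BALBc mice, SKG was lower for 11 of the 19 (41.6% of all probes), with a median of −0.16. Tgfb2, a TGF-beta ligand, had 5.04, 4.92, 5.11, 4.83 and 4.84 in SKG, against 5.68, 5.82 and 6.16 in BALBc. All SKG mice were below all BALBc mice, and the fit gave −1.10 with a limma adjusted p of 0.0647. Tgfbr2, its receptor, had −1.01 (limma adjusted p 0.133).

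The remaining lists had medians nearer to 0. Of 8 other collagens 6 were below 0 with a median of −0.26, with Col16a1, a fibril-associated collagen, at −1.16 and Col7a1, the anchoring fibril collagen under epithelium, at 0.58. Col7a1 was above background on 5 SKG arrays and 1 BALBc array, so it passed the filter through its SKG arrays. Against the mean of the batch 2 BALBc mice, SKG was lower for 1 of these 8 collagens. Of 8 other laminin and basement membrane genes 4 were below 0 with a median of −0.21, and Lamb3, an epithelial laminin chain, had 1.02 (standard error 0.28, limma adjusted p 0.145). At an unadjusted p under 0.05, 2 of these 8 were lower and 2 higher (5.92% and 7.42% of all probes). Lama2, 1 of the lower ones, was above background on 2 SKG and 3 BALBc arrays. Against the mean of the batch 2 BALBc mice, SKG was lower for 4 of these 8 genes. Agrn, a basement membrane heparan sulphate proteoglycan, had 0.87. Of 11 matrix receptors 6 were below 0 with a median of −0.05. At an unadjusted p under 0.05, 2 were lower and 1 higher (5.92% and 7.42% of all probes). Against the mean of the batch 2 BALBc mice, SKG was lower for 6 of the 11. Ddr1, a collagen receptor of epithelium, had 8.96, 8.66, 8.85, 9.23 and 9.11 in SKG, against 8.60, 8.52 and 7.42 in BALBc. All SKG mice were above all BALBc mice, with 1.25 in the fit and a limma adjusted p of 0.0950. Itga11, a collagen-binding integrin of fibroblasts, had −1.08 (limma adjusted p 0.0976).

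**Figure D5:**
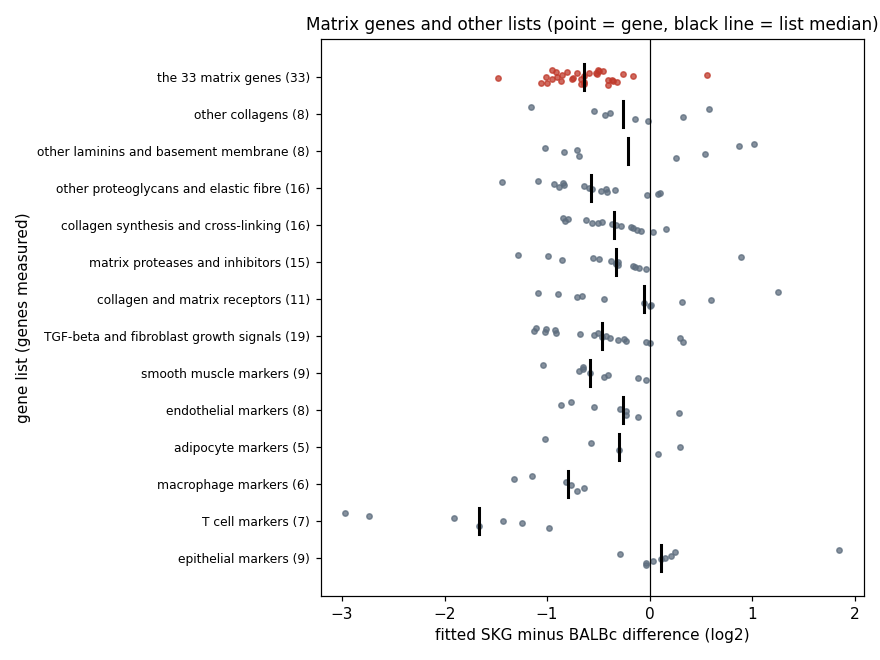
Fitted SKG minus BALBc difference (log2) of the 33 matrix genes, of the other matrix lists and of the larger cell type marker lists, with 1 point per gene and the list's median as a black line. Medians run from −1.66 for T cell markers to 0.11 for epithelial markers.

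Markers of the cells that make or surround matrix were read beside these values, as the summed linear signal of a list's probes. Fibroblast markers had 9 measured genes, all with fitted differences below 0, but 7 of the 9 are matrix genes described above. Their summed signal was 4910 to 6913 in SKG, against 9432 to 17295 in BALBc, and Dcn alone made up 56.0% to 69.1% of it. The 2 other markers, Cd34 and Pi16, summed to 109 to 324 in SKG, against 118 to 264 in BALBc, with overlap. Smooth muscle markers had 9 of 9 below 0 with a median of −0.58, but their summed signal overlapped, at 29737 to 42011 in SKG against 27707 to 53985 in BALBc. It was lowest in BALBc replicate 1 and highest in BALBc replicate 3. The brightest genes weigh most in this sum: Acta2, Mylk and Actg2 had mean log2 signals of 13.62, 13.03 and 12.85. By brightest probe, only Des of the 9 had all SKG mice below all BALBc mice (5.25% of all probes). Its fitted difference was −1.04, with a limma adjusted p of 0.195. The probes of Acta2, smooth muscle actin, disagreed in size: the brightest gave −0.12, and 2 dimmer ones passed the test with −2.37 and −2.28 (limma adjusted p 0.0263 and 0.0438). With batch as a fixed block these were not called (limma adjusted p 0.0578 and 0.0726). Endothelial markers had 7 of 8 below 0 and sums of 1386 to 2371 in SKG against 906 to 2831 in BALBc. Adipocyte markers had 3 of 5 below 0 and sums of 1981 to 9081 in SKG against 735 to 8230 in BALBc, with SKG replicate 6 and BALBc replicate 3 highest. Against the mean of the batch 2 BALBc mice, SKG was lower for 7 of 9 fibroblast and 2 of 9 smooth muscle markers. It was lower for 2 of 8 endothelial and 0 of 5 adipocyte markers, and for 41.6% of all probes. The medians were −0.65, 0.34, 0.44 and 1.24. The part of these cells in the matrix values was not tested.

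The immune marker lists had medians from −1.66 to −0.77. All 7 measured T cell markers were below 0 with a median of −1.66 and sums of 318 to 680 in SKG against 756 to 2182 in BALBc. Cd6, a T cell surface receptor, was the only listed gene whose brightest probe passed the test. It had 4.91, 5.43, 6.15, 4.40 and 4.39 in SKG, against 7.07, 6.83 and 8.39 in BALBc. All SKG mice were below all BALBc mice, and the fit gave −2.97 (standard error 0.53, limma adjusted p 0.0405). Its 2 dimmer probes were above background on 2 SKG and 3 BALBc arrays, and so passed the filter only through their BALBc arrays. Likewise Cd4 was above background on 1 SKG and 3 BALBc arrays. All 6 macrophage markers were below 0 with a median of −0.79 and sums of 707 to 1023 in SKG against 1197 to 1723 in BALBc. All 3 B and plasma cell markers were below 0, with sums of 261 to 912 in SKG against 482 to 993 in BALBc. Against the mean of the batch 2 BALBc mice, 6 of 7 T cell and 4 of 6 macrophage markers were lower in SKG. Of the B and plasma cell markers 1 of 3 was lower in that comparison. Epithelial markers had 3 of 9 below 0, a median of 0.11 and sums of 50879 to 55165 in SKG against 46655 to 52436 in BALBc. For 2 of the 9, Apoa4 and Krt8, all SKG mice were above all BALBc mice (10.0% of all probes), and for none below. The fit gave 1.85 for Apoa4 (limma adjusted p 0.0794) and 0.25 for Krt8. The 3 glia and neuron markers were below 0, of which Elavl4 was above background on 0 SKG and 3 BALBc arrays, so that the filter set its sign. The 2 mesothelial markers had 1 on each side. The part of immune and epithelial cells in the matrix values was not tested.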

How the data were processed

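Per sample, the deposited files hold bead signal, bead numbers, bead standard deviations and a detection value for each probe of 1-colour Illumina bead arrays. The signal is an intensity, not normalised by the authors and written by GenomeStudio 1.9.0 per the file headers. Detection is deposited as a fraction, 1 minus the detection p. The submitters' processing notes name GenomeStudio and limma. The authors' deposited table of log2 values, centred in a way not stated, was used only as an alternative.

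Signal ranks of batch 1 correlated at 0.077 to 0.097 with those of the other 8 arrays, which correlated at 0.838 to 0.947 among themselves. Bead numbers of batch 1 correlated at 0.0057 with theirs, against 0.524 between 3 and 5 of the 8. Batch 1 was left out for this reason.

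The 8 arrays were corrected for background from detection p by limma's nec, with 16 added as offset. The corrected signals were quantile normalised and then put on the log2 scale (limma 3.58.1, statmod 1.5.0, R 4.3.3). Probes above background (detection p under 0.05) on 3 or more arrays were tested. SKG was compared with BALBc by limma with batch as a random block (duplicateCorrelation, consensus correlation 0.545). The test was two-sided, with Benjamini-Hochberg adjustment over all 13775 probes and a threshold of 0.05. A fitted difference weighs the batches and is not the difference of plain means. A gene was given by its tested probe of highest mean signal, and promoters were matched by symbol. Alternatives covered scaling, background, filter, batch, array weights, probe choice and each mouse left out.

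Genes given with each mouse's value were those past the threshold and, in each role group, the 3 of smallest p. In the other matrix lists and the signalling list the genes named were those past the threshold, or else the 2 of smallest p. Marker lists were given mainly by counts and sums, and not every gene of smallest p in them was named. Members and lists were chosen with earlier results of these data known. Replicates are separate animals per the labels.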

Additional observations from a re-analysis of the deposited data

Results flagged for a closer look

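Among the 33 matrix genes, 2 values of SKG replicate 6 lay far from those of the other 4 SKG mice, by the ratio of gap to range in a group of 5. Chance gives about 1 such value in 20 groups, and with 33 genes examined, 2 such values are near that rate. Nid2 was 5.30 in SKG replicate 6, against 6.41 to 6.51 in the other SKG mice. Lum was 8.05 in SKG replicate 6, against 8.37 to 8.44 in the other SKG mice. SKG replicate 6 was the highest SKG mouse for 11 of the 33 genes and the lowest for 7.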

How the results depend on the processing

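The median of the 33 genes was below 0 under every alternative except without BALBc replicate 3. With array weights, which did not converge, 8055 probes and 18 of the 33 genes were called. The median of the 33 was then −0.18 and that of basement membrane genes 0.028, with Sparc 0.56, Mgp 0.49, Col6a2 0.36, Col14a1 0.70 and Bgn 0.23. With no block for batch, 701 probes and 1 matrix gene were called. The basement membrane median was −0.23, with Sparc 0.091, Mgp 0.25, Col6a2 0.025 and Col14a1 0.26. Calls over all probes were 147 with scaling to the 75th percentile, 124 with no filter (Col14a1 0.021) and 45 in batch 3 alone.

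Leaving out 1 mouse in turn gave 26 to 5141 probes and 0 to 7 matrix genes called. The 5141 came without BALBc replicate 3, and 754 without SKG replicate 6. The median of the 33 genes was −0.71 to 0.057, of fibrillar collagens −0.60 to −0.16 and of basement membrane genes −0.71 to 0.14, each highest without BALBc replicate 3. Likewise Sparc was −0.77 to 0.69, Mgp −0.41 to 0.72, Col6a2 −0.77 to 0.57, Col14a1 −0.28 to 0.61, Loxl1 −1.24 to 0.057 and Col5a1 −0.67 to 0.21. Pdgfrb was −0.52 to 0.066, Timp2 −1.25 to 0.10, Mmp2 −0.83 to 0.068 and Bgn −1.13 to 0.46. In the authors' deposited table, with 13 of the genes, none was called, the proteoglycan median was −0.50, Col3a1 was 0.048 and Mmp2 −5.44. In the other settings the genes named by rule kept their direction and did not pass, 23 of them in each setting but 22 at a detection p under 0.01, where Lama4 was not tested, and in batch 3 alone. Without background correction Lama4 was −0.15, Lox −0.21 and Col1a2 −0.16, and with batch as a fixed block Col3a1 was −0.01. The causes of these changes were not tested. No paired analysis was possible because the groups compared share no replicate numbers. Genes near background, such as Lama4, are limited by signal, and only 1 BALBc mouse shares a batch with SKG.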
